A study of Mus musculus with 8 samples.

Results

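The Langerhans cell genes described here are 9 genes listed by symbol, Cd207, Mfge8, Ctss, Csf1r, Il34, Itgax, Cd86, Ltc4s and Epcam, read by their Ensembl identifiers from count tables of 54838 genes. All 9 were found in the tables and all 9 passed the filter on low counts, among 17839 genes that did. The material was mouse skin epidermis, isolated with trypsin, in 8 libraries that formed 4 groups of 2 biological replicates: control mice at 25 DPI, Ovol1/2 iDKO mice at 25 DPI, control mice at 52 DPI and Ovol1/2 iDKO mice at 52 DPI. Genotype, iDKO and DPI are written as the labels give them. The sources used here do not give the driver, the alleles, the age or the strain of the mice, or what the control animals carry. Ovol1 and Ovol2, the genes named in the genotype, encode zinc finger transcription factors of epithelia.

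Langerhans cells are the resident antigen-presenting cells of the epidermis. They descend from the macrophage lineage, renew themselves within the epidermis and behave as dendritic cells when they take antigen to the lymph node. Keratinocytes make interleukin 34, the ligand that keeps them alive through the receptor Csf1r, and transforming growth factor beta holds them in place until they mature and leave. Of the 9 genes, Il34 is the ligand and Csf1r its receptor. Cd207 encodes langerin, the lectin that forms Birbeck granules and defines the cell in epidermis, and Itgax encodes the integrin chain CD11c of dendritic cells. Epcam encodes an adhesion protein that Langerhans cells share with epithelial cells of the hair follicle. Ctss encodes cathepsin S, the protease that trims the invariant chain from MHC class II. Cd86 encodes a co-stimulator of T cells, Mfge8 a secreted bridge between apoptotic cells and phagocytes, and Ltc4s the synthase of leukotriene C4. Several of them are also made by other cells, Il34 and Epcam by epithelial cells and Mfge8 by stromal cells among others.

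Start-site regions are shown because the genotype names a pair of DNA-binding factors. They are those of 5 of the 7 members that were higher in iDKO in the 3 pairs other than 25 DPI replicate 1. Regions from the RefSeq promoter table of GRCm38.p6 were used for 6 of the 9 members, the other being Epcam. No region of Csf1r, Il34 or Cd86 was used, so the shares of members below leave these genes out. Each sequence is the 250 bases before the start site, on the strand of the gene, from chr6:83677858-83678107 (minus strand), chr7:79149061-79149310 (minus strand), chr3:95526536-95526785 (plus strand), chr7:128129300-128129549 (plus strand) and chr11:50238533-50238782 (minus strand), in the order of the lines. The start sites are those of the promoter table. By the gene coordinates given below, the regions of Ltc4s and Itgax reach into the gene. Capitals mark the letters GAGGAA, the core bound by PU.1, a factor of macrophages and dendritic cells, or TGTGGT, the core bound by RUNX factors, on either strand.
Cd207: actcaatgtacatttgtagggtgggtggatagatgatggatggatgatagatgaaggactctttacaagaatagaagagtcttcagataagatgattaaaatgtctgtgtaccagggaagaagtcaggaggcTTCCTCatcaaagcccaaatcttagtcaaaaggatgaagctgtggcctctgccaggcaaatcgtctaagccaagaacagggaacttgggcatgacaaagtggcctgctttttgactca
Mfge8: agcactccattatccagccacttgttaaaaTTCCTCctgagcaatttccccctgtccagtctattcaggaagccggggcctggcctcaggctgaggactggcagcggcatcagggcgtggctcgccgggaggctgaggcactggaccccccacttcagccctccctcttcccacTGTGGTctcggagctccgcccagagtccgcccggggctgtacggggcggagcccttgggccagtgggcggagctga
Ctss: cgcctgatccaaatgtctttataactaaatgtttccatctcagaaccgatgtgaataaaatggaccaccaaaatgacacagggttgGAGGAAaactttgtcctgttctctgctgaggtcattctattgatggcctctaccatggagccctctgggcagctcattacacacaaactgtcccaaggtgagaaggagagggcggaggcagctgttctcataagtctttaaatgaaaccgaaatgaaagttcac
Itgax: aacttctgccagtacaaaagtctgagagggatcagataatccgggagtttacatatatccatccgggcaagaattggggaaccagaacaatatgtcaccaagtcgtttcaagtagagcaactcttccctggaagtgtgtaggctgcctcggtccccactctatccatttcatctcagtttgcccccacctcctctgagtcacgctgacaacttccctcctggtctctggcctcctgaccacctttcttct
Ltc4s: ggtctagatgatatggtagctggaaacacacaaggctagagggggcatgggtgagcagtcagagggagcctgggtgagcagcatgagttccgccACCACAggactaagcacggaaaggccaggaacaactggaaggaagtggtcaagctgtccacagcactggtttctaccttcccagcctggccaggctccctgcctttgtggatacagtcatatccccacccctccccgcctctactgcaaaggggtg
The PU.1 core stood 118 bases before the start of Cd207, 220 before that of Mfge8 and 164 before that of Ctss, and was in neither of the regions of Itgax and Ltc4s. It stood in 3 of the 6 members' regions and in 23.3% of all 32851 regions of the same length. The RUNX core stood in 2 of the 6, Mfge8 and Ltc4s, and in 14.0% of all regions. The letters CCGTTA, the core of the OVOL recognition sequence, stood in 0 of the 6 and in 2.18% of all regions. The 3 cores do not overlap in these sequences. A match is a description of the letters in the window.

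The libraries held 9824307 to 50711381 counts, so that 1 count was worth more in some than in others. Values are given as CPM, the usual depth-scaled counts, with library sizes adjusted by the TMM method. The replicate numbers differed in library type, with 95.4% to 95.7% of the strand-assigned counts lying on the second strand in replicate 2 and 49.8% to 50.0% in replicate 1, so each iDKO library is read against its numbered control at that time, which gives 4 pairs, replicate 1 being named first. Uty, Kdm5d, Eif2s3y and Ddx3y, which are Y-linked, had counts in all 4 libraries at 25 DPI and 0 at 52 DPI, and Xist was at 0.119 to 0.342 CPM against 131 to 1139 CPM, so sex and time cannot be told apart. Ovol1 was at 36.3 to 157 CPM in the control libraries and at 99.0 to 204 CPM in the libraries labelled iDKO, and Ovol2 at 7.52 to 24.9 and 9.16 to 44.6 CPM, and both genes were higher in the iDKO library of all 4 pairs. These counts over whole genes of Ovol1 and Ovol2 thus went against the label, and the deleted part of the genes is not known here. Zeb1, outside the lists, was at 2.04 to 3.33 CPM in control libraries and at 14.4 to 35.3 CPM in those labelled iDKO. Zeb1 was among the genes tested, and its fitted values are not given here. The cause of its difference was not tested. Every direction below is that of the libraries labelled iDKO. The control library of 25 DPI replicate 1 stood apart in erythroid and melanocyte markers. Its 5 erythroid markers summed to 111 CPM against 0.628 to 18.3 CPM in the other 7 libraries. Its 4 melanocyte markers summed to 356 against 28.9 to 44.0 CPM. The 7 T cell markers were also highest there, at 577 against 138 to 525 CPM.

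Transcripts of Langerhans cells were present in every library. For Cd207 the control libraries of 25 DPI gave 36.7 CPM (replicate 1) and 4.92 CPM (replicate 2), and the iDKO libraries 17.2 and 49.8 CPM. At 52 DPI it was at 28.8 and 47.6 CPM (control) against 65.2 and 68.0 CPM (iDKO). The 2 iDKO libraries at 52 DPI thus lay above all other libraries, and the control library of 25 DPI replicate 2 lay lowest, 13.8-fold below the highest. The genes of MHC class II, which mature Langerhans cells and other antigen-presenting cells make, were also present, with H2-Ab1 at 24.5 to 299 CPM and Cd74 at 47.2 to 508 CPM. In bulk epidermis fewer Langerhans cells and less RNA per cell cannot be told apart.

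On GRCm38 the 9 genes lie at chr6:83671215-83677857 (Cd207, ENSMUSG00000034783), chr7:79133768-79149060 (Mfge8, ENSMUSG00000030605), chr3:95526786-95556403 (Ctss, ENSMUSG00000038642), chr18:61100598-61132149 (Csf1r, ENSMUSG00000024621), chr8:110741829-110805924 (Il34, ENSMUSG00000031750), chr7:128129547-128150657 (Itgax, ENSMUSG00000030789), chr16:36603869-36666081 (Cd86, ENSMUSG00000022901), chr11:50236461-50238616 (Ltc4s, ENSMUSG00000020377) and chr17:87635979-87651129 (Epcam, ENSMUSG00000045394). All are protein coding, and each value below is a count over the exons of the whole gene. The exons of Ltc4s overlap those of the antisense gene Gm26542 over 26.4% of their length, and those of Csf1r overlap the gene Hmgxb3 on the other strand over 15.1%. Il34 overlaps 2 antisense genes, Gm15894 and Gm15895, over 1.12% and 3.83% of its exons.

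Per kilobase of annotated exon, a scale on which levels of different genes can be compared, Epcam had the highest level of the 9 (median of 8 libraries 135.6 CPM per kb), followed by Il34 (43.3 CPM per kb) and Cd207 (27.7 CPM per kb). Mfge8 (17.7 CPM per kb) and Ctss (5.59 CPM per kb) came next, and then Csf1r (2.65 CPM per kb), Cd86 (1.36 CPM per kb), Ltc4s (0.718 CPM per kb) and Itgax (0.547 CPM per kb). The ranges over libraries of every pair of neighbours in this order overlapped. The receptor Csf1r was thus listed at a far lower level than its ligand Il34.

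**Figure D1:**
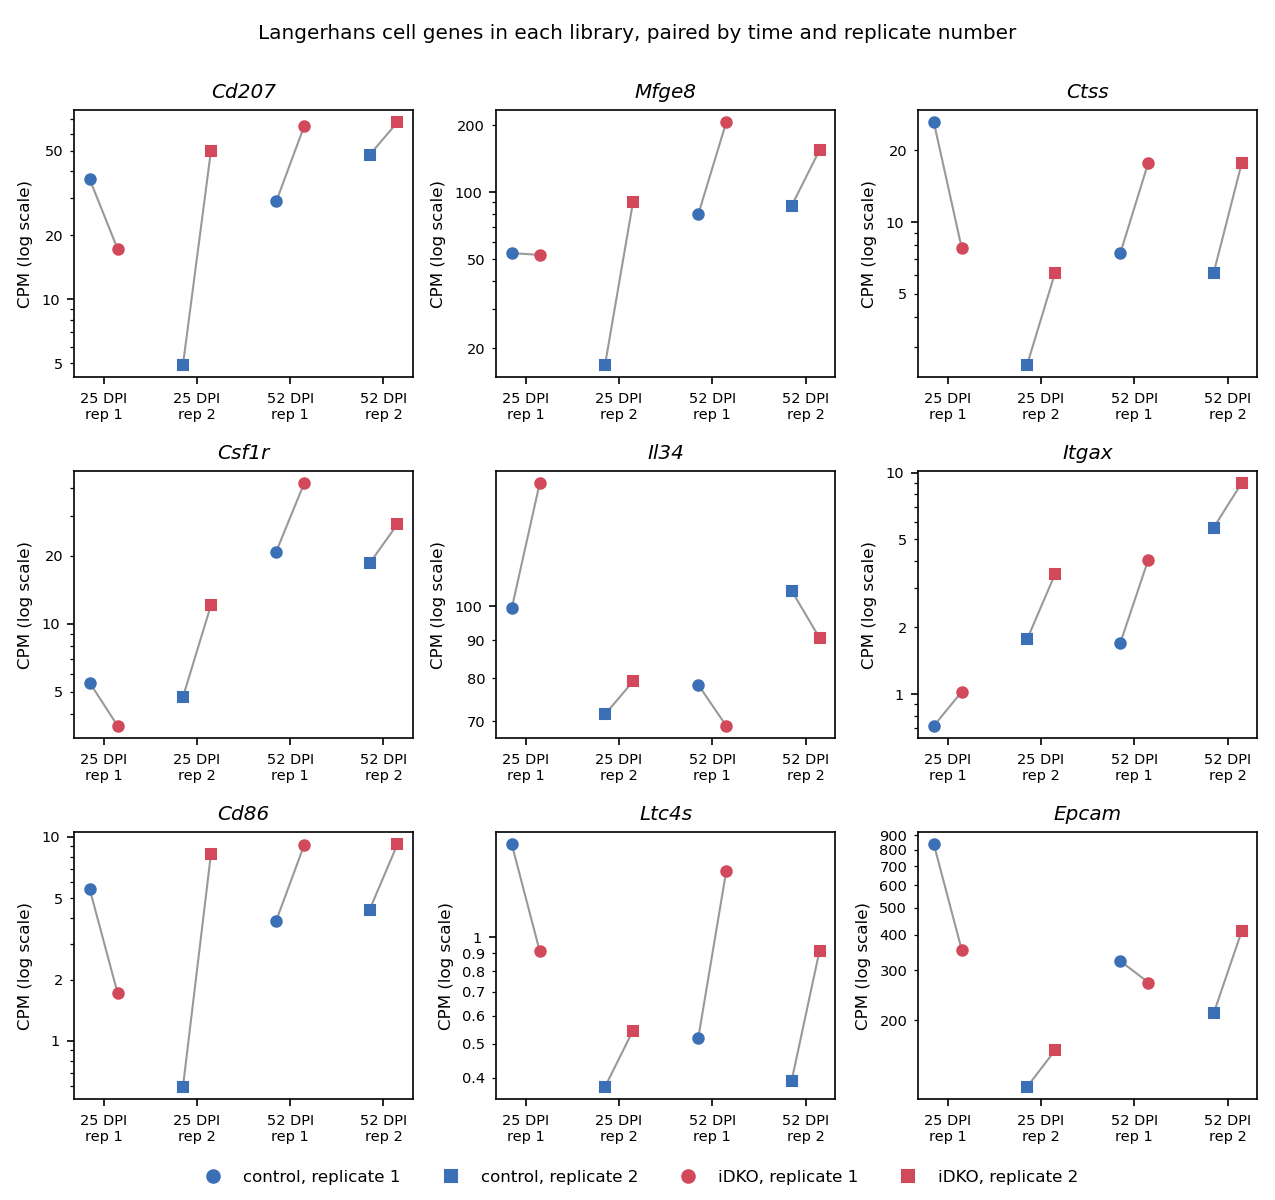
CPM (log scale) of the 9 genes in the 8 libraries, with the control (blue) and iDKO (red) library of each time and replicate number joined by a line. Cd207, Mfge8, Ctss, Csf1r, Itgax, Cd86 and Ltc4s were higher in iDKO in the 3 pairs other than 25 DPI replicate 1, and at 25 DPI replicate 1 only Il34 and Itgax were.

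The ligand and its receptor differed in pattern. Il34 was the most even of the 9 genes. It was at 99.3 and 71.5 CPM (control) against 146 and 79.2 CPM (iDKO) at 25 DPI, and at 78.3 and 105 CPM (control) against 69.0 and 90.6 CPM (iDKO) at 52 DPI. Its highest library was 2.12-fold above its lowest, against 4.85-fold to 15.5-fold for the other 8 genes, and the groups overlapped at both times. Il34 was higher in iDKO in both pairs at 25 DPI, by 1.47-fold and 1.11-fold, and lower in both pairs at 52 DPI, at 0.88 and 0.863 of control, a pattern of 1 of the 9 members and of 8.4% of all genes tested. By edgeR's quasi-likelihood test its log2 fold change was 0.40 (SE 0.52) at 25 DPI and -0.20 (SE 0.52) at 52 DPI. Neither was called (adjusted p = 1.00 for both by edgeR). With the replicate number within time as a block the values were 0.35 (SE 0.21) and -0.20 (SE 0.21), also uncalled.

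Csf1r was at 5.49 and 4.75 CPM (control) against 3.54 and 12.1 CPM (iDKO) at 25 DPI, and at 20.9 and 18.5 CPM (control) against 41.9 and 27.6 CPM (iDKO) at 52 DPI. All 4 libraries of 52 DPI lay above all 4 of 25 DPI, which held for 1 of the 9 members and for 2.65% of all genes tested, and 0 members lay below in all 4 (1.64%). Its log2 fold change from 25 to 52 DPI was 1.94 (SE 0.65) in control and 2.14 (SE 0.65) in iDKO, uncalled by edgeR in both genotypes (adjusted p = 1.00). Over all genes 0 were called in either of these comparisons by edgeR, with 269 and 298 genes at an unadjusted p under 0.05, and DESeq2 called 13 and 11 genes, of which 0 were members (percent called 0.0729% and 0.0617%). At 52 DPI the iDKO libraries lay above the control libraries for Csf1r, by 2.01-fold and 1.49-fold within pairs.

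The lineage genes Cd207 and Itgax were higher in most iDKO libraries. Cd207 was 10.1-fold higher in iDKO in the 25 DPI replicate 2 pair, 2.26-fold and 1.43-fold higher in the 52 DPI pairs, and at 0.47 of control in the 25 DPI replicate 1 pair. The 25 DPI values rested on a low control library, the deepest of the series, which had 248 counts of Cd207. Itgax was at 0.719 and 1.77 CPM (control) against 1.03 and 3.48 CPM (iDKO) at 25 DPI, and at 1.71 and 5.64 CPM (control) against 4.05 and 8.96 CPM (iDKO) at 52 DPI. It was the 1 member higher in iDKO in all 4 pairs, by 1.43-fold, 1.97-fold, 2.38-fold and 1.59-fold, against 6.73% of all genes tested, and its groups overlapped at both times. The 25 DPI replicate 1 ratio rested on 9 counts in iDKO and 11 in control.

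Epcam did not follow Cd207. It was at 837 and 116 CPM (control) against 354 and 156 CPM (iDKO) at 25 DPI, and at 324 and 211 CPM (control) against 272 and 412 CPM (iDKO) at 52 DPI. It was higher in iDKO in 2 of the 4 pairs, and its highest library was the control of 25 DPI replicate 1. Its ratio to Cd207 ran from 3.14 to 23.6 over the libraries, and the 3 highest ratios were those of both 25 DPI control libraries and iDKO 25 DPI replicate 1.

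Antigen processing and co-stimulation genes were higher in iDKO at 52 DPI without overlap. Ctss was at 7.41 and 6.11 CPM (control) against 17.7 and 17.6 CPM (iDKO) at 52 DPI, and at 26.2 and 2.52 CPM (control) against 7.76 and 6.13 CPM (iDKO) at 25 DPI. Cd86 was at 3.89 and 4.39 CPM (control) against 9.14 and 9.22 CPM (iDKO) at 52 DPI, and at 5.56 and 0.596 CPM (control) against 1.71 and 8.24 CPM (iDKO) at 25 DPI. For both genes the 2 replicates of each group at 52 DPI lay close together, while the control replicates at 25 DPI were far apart and, for Ctss, were the highest and the lowest of all 8 libraries. By edgeR neither was called at 52 DPI (adjusted p = 1.00).

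The secreted protein and the enzyme were also higher in both iDKO libraries at 52 DPI. Mfge8 was at 79.7 and 86.8 CPM (control) against 206 and 155 CPM (iDKO) at 52 DPI, and at 53.3 and 16.8 CPM (control) against 52.4 and 90.3 CPM (iDKO) at 25 DPI. It had the smallest unadjusted p of the 9 genes across both times by edgeR, with a log2 fold change of 1.07 (SE 0.41), and was uncalled (adjusted p = 1.00). Ltc4s was at 0.519 and 0.392 CPM (control) against 1.54 and 0.916 CPM (iDKO) at 52 DPI, and at 1.83 and 0.377 CPM (control) against 0.912 and 0.544 CPM (iDKO) at 25 DPI. These levels are those of 5 to 49 counts per library, and in replicate 2 counting without strand gave fewer. There the second-strand column held 36 and 22 counts in control at 25 and 52 DPI and 60 and 68 in iDKO, where the column without strand held 19, 5, 15 and 14 in the same order. With the second-strand column for replicate 2 the log2 fold change of Ltc4s at 25 DPI was 0.34 in place of -0.59.

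**Figure D2:**
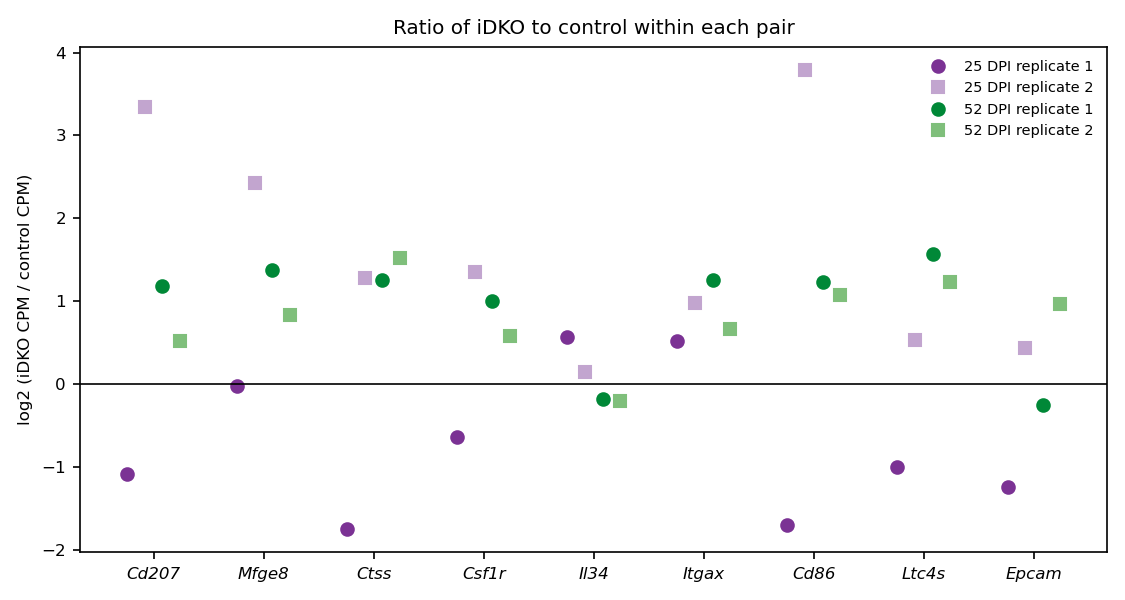
Log2 ratio of iDKO to control CPM within each of the 4 pairs (purple, 25 DPI; green, 52 DPI; dark circles, replicate 1; light squares, replicate 2) for the 9 genes. The 25 DPI replicate 1 pair lies below 0 for 7 genes, the 25 DPI replicate 2 pair lies above 0 for all 9, and the 52 DPI pairs lie above 0 for 7 and 8 genes.

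At 52 DPI, 7 of the 9 members were higher in iDKO in both pairs (27.8% of all genes tested) and 6 had iDKO libraries above control libraries without overlap (11.9% of all genes tested), namely Cd207, Mfge8, Ctss, Csf1r, Cd86 and Ltc4s. Genes of 1 cell type share its amount in a library and are not independent of each other. The median log2 fold change of the 9 was 0.83, against -0.01 over all genes. By edgeR 0 members were called at an adjusted p under 0.05 (percent called over all genes 0%, with 143 genes and 0 members at an unadjusted p under 0.05). DESeq2 called 0 members without a block (percent called 0.00561%) and 0 with the replicate number within time as a block (percent called 0.196%). The largest log2 fold changes by edgeR were 1.42 (SE 1.05) for Ltc4s, 1.38 (SE 0.93) for Ctss and 1.15 (SE 1.08) for Cd86. Those of Mfge8, Itgax, Csf1r and Cd207 were 1.12 (SE 0.64), 0.83 (SE 0.95), 0.82 (SE 0.63) and 0.80 (SE 0.91), and those of Epcam and Il34 were 0.35 (SE 0.91) and -0.20 (SE 0.52). Leaving out any 1 library kept the values of the 8 genes other than Il34 above 0. That of Il34 changed sign (0.04 without control 52 DPI replicate 2), and that of Itgax ran from 0.16 to 1.94. With the block and all libraries edgeR gave 1.41 (SE 0.71) for Ltc4s, 1.39 (SE 0.65) for Ctss and 1.15 (SE 1.03) for Cd86. Mfge8, Itgax, Csf1r and Cd207 had 1.10 (SE 0.52), 0.95 (SE 0.43), 0.79 (SE 0.44) and 0.85 (SE 0.85). Epcam and Il34 had 0.35 (SE 0.46) and -0.20 (SE 0.21), and all 9 stayed uncalled.

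At 25 DPI the pairs went opposite ways. In the replicate 1 pair 2 of the 9 members were higher in iDKO, Il34 and Itgax, and in the replicate 2 pair all 9 were. Both pairs were higher in iDKO for 2 of 9 members (25.5% of all genes tested), and 0 of 9 had iDKO libraries above control without overlap (5.39%). By edgeR 0 members were called (percent called 0%, with 75 genes and 0 members at an unadjusted p under 0.05), and DESeq2 called 0 members without a block (percent called 0.0112%) and 0 with it (percent called 0.652%). The log2 fold changes ran from -1.05 (SE 0.93) for Ctss to 1.03 (SE 0.64) for Mfge8, with 0.69 (SE 0.91) for Cd207, 0.73 (SE 1.08) for Cd86, 0.86 (SE 0.95) for Itgax, 0.62 (SE 0.63) for Csf1r, -0.59 (SE 1.05) for Ltc4s and -0.90 (SE 0.92) for Epcam. With the block within time the values were -0.23 (SE 0.72) for Ctss, -0.41 (SE 0.47) for Epcam, -0.21 (SE 0.70) for Ltc4s, 1.16 (SE 1.08) for Cd207 and 1.17 (SE 1.40) for Cd86, also uncalled, and the others moved less. Single libraries decided the directions. Without control replicate 1 Ctss, Ltc4s and Epcam had values of 1.42, 0.87 and 1.08. Without control replicate 2 Cd207 and Cd86 had values of -0.09 and -0.10, and without iDKO replicate 2 Cd207, Cd86, Csf1r and Itgax had -0.28, -0.84, -0.53 and -0.28. The value of Il34 without iDKO replicate 1 was -0.04. Mfge8 kept its direction without any 1 library (0.45 to 2.06).

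The genotype effects at 52 and 25 DPI were compared by an interaction contrast. Without a block Ctss had the largest log2 difference of effects among the members, 2.43 (SE 1.31), and Il34 had -0.60 (SE 0.73). With the block within time the value of Ctss was 1.61 (SE 0.96), next to 1.63 (SE 0.99) for Ltc4s. By edgeR without the block neither Ctss nor Il34 was called (adjusted p = 1.00), and 0 members were called (percent called 0%, with 139 genes and 0 members at an unadjusted p under 0.05). DESeq2 called 0 members without a block (percent called 0%) and 0 with it (percent called 0.309%). The Ctss value was -0.03 without control 25 DPI replicate 1.

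Across both times 8 of the 9 members had log2 fold changes above 0, with a median of 0.72 against -0.02 over all genes, and 0 were called by edgeR (percent called 0%) or by DESeq2 without a block (percent called 0.0448%). With the replicate number within time as a block, edgeR called 1 gene of all and 0 members (percent called 0.00561%), and DESeq2 0 members (percent called 0.392%). The smallest adjusted p of the 9 by DESeq2 with the block were 0.275 for Mfge8 and 0.534 for Itgax. The control library of 25 DPI replicate 1 had the highest erythroid, melanocyte and T cell marker sums. The iDKO library of 52 DPI replicate 2 had the next highest erythroid and T cell sums (18.3 and 525 CPM) and was kept. The pair of 25 DPI replicate 1 was then left out, a choice made after seeing that it went against the other 3. In those 3 pairs 7 of 9 members were higher in iDKO each time (15.2% of all genes tested), which the choice of pairs partly fixes. DESeq2 with the block then called 5 of the 9, all higher in iDKO (percent called 1.89%): Ctss (log2 fold change 1.35, SE 0.25, adjusted p = 1.85e-05 by DESeq2), Mfge8 (1.54, SE 0.32, 0.00033), Csf1r (0.98, SE 0.24, 0.00692), Cd86 (1.96, SE 0.56, 0.0265) and Cd207 (1.63, SE 0.48, 0.0350). EdgeR with the same libraries and block called 0 members (percent called 0.0112%), with an adjusted p of 0.225 for Ctss and 0.349 for Mfge8 and Csf1r. Without the pairs 25 DPI replicate 2, 52 DPI replicate 1 and 52 DPI replicate 2 in turn DESeq2 called 0 members (percent called 0.0912%, 0.168% and 0.311%). The members' call thus rested on leaving out that 1 pair and on the tool.

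Cd86 kept a nearly fixed ratio to Cd207. Over the 8 libraries Cd207 varied 13.8-fold and Cd86 15.5-fold, and the ratio of Cd86 to Cd207 CPM lay between 0.0921 and 0.165, a 1.80-fold span. The ratio of Mfge8 to Cd207 lay between 1.45 and 3.42 (2.35-fold). The ratios of the MHC class II genes H2-Aa and H2-Eb1 to Cd207 spanned 2.85-fold and 3.01-fold and those of Cd74 and H2-Ab1 4.13-fold and 4.32-fold. Those of Ctss and Csf1r spanned 5.80-fold and 6.44-fold, those of Epcam and Ltc4s 7.51-fold and 9.32-fold, and those of Il34 and Itgax 13.7-fold and 18.3-fold. The ratio of Csf1r to Cd207 was 0.150 to 0.964 at 25 DPI and 0.388 to 0.724 at 52 DPI. These ratios share Cd207 and the depth of each library and carry no test.

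**Figure D3:**
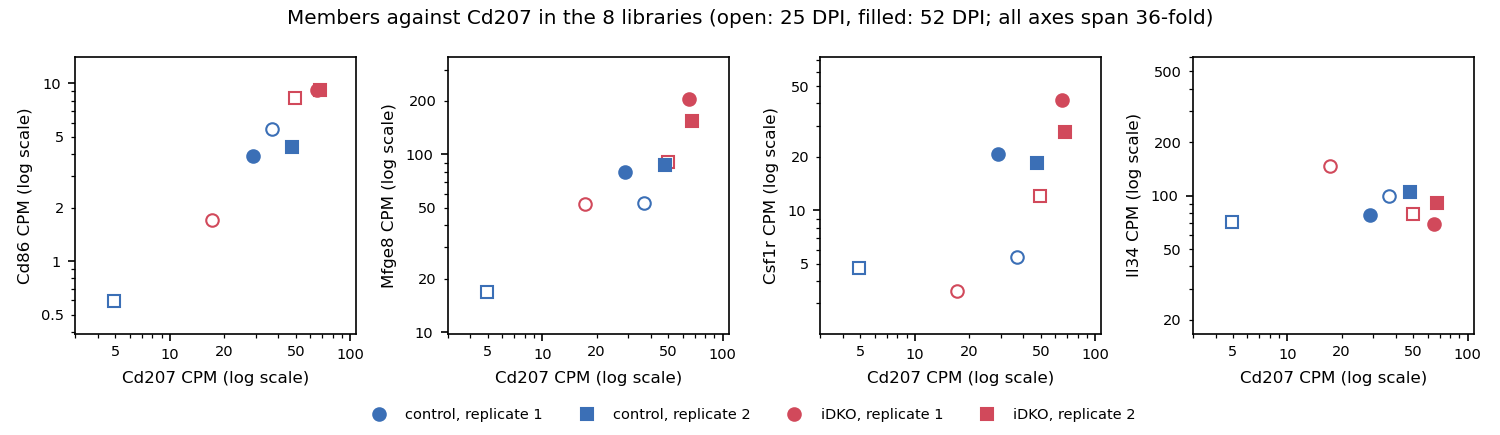
CPM of Cd86, Mfge8, Csf1r and Il34 against CPM of Cd207 in the 8 libraries (both axes log scale, each spanning the same fold range; blue control, red iDKO; open 25 DPI, filled 52 DPI). The libraries lie in nearly the same order for Cd86 and Mfge8 as for Cd207, those of 52 DPI lie above those of 25 DPI for Csf1r, and Il34 stays between 69.0 and 146 CPM whatever the level of Cd207.

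The genes most like Cd207 were sought over the 8 libraries after the mean of each replicate number had been subtracted, among the 12345 genes whose log2 CPM averaged 1 or more. Cd86 came 2nd (r = 0.978), Mfge8 11th (0.938), Cd74 14th (0.932) and H2-Ab1 15th (0.932). The others of the first 5 were Col5a1, a fibrillar collagen chain (0.979), Nipa2 (0.963), N4bp3 (0.960) and Calr, a chaperone of the endoplasmic reticulum (0.958). Of the remaining members Ctss ranked 193rd (0.781), Itgax 240th (0.755), Csf1r 285th (0.738), Epcam 1342nd (0.473) and Il34 6274th (-0.03). For Il34 the 5 closest were Zfp91 (0.959), Tmem250-ps (0.956), Chmp4b (0.953), Styx (0.952) and Zbtb12 (0.948). Without the subtraction Cd86 correlated with Cd207 at 0.978 and Mfge8 at 0.936, while Col5a1 was at 0.647 and, with Il34, Zfp91 at -0.03. With 8 libraries and this many genes high values occur by search alone, and no p is given.

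The related lists were chosen with earlier results of these data known. Each list includes members, so its counts are not separate from those above. The genes without overlap at 52 DPI include Ctss in the class II list, Cd86 in the activation list and Cd207 in the surface list. Of 11 genes of MHC class II presentation, 9 were higher in iDKO at 52 DPI without overlap between groups (11.9% of all genes tested), with a median log2 fold change of 1.12. In the 25 DPI replicate 1 pair 0 of the 11 were higher, and in the replicate 2 pair 10 were. H2-Ab1, a chain of the class II molecule, was at 126 and 91.4 CPM (control) against 299 and 174 CPM (iDKO) at 52 DPI. Cd74, the invariant chain that Ctss cleaves, was at 205 and 140 CPM (control) against 508 and 301 CPM (iDKO) at 52 DPI, and at 426 and 47.2 CPM (control) against 209 and 181 CPM (iDKO) at 25 DPI. By edgeR 0 of the 11 were called at 25 DPI, at 52 DPI or across both times, with or without the block. H2-Oa, a modulator of class II loading, had the smallest unadjusted p of the list under the block, at 0 to 1.51 CPM and lower in iDKO in 3 of the 4 pairs.

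Of 12 tested genes of dendritic cell activation and migration, 8 were higher in iDKO at 52 DPI without overlap (11.9% of all genes tested), and 5 were higher in all 4 pairs (6.73% of all genes tested), Cd40, Ccr7, Cd274, Fscn1 and Il12b. Fscn1, the actin bundler of mature dendritic cells that mesenchymal cells also make, was at 2.03 and 5.58 CPM (control) against 6.39 and 17.3 CPM (iDKO) at 25 DPI, and at 28.3 and 18.5 CPM (control) against 43.5 and 88.0 CPM (iDKO) at 52 DPI. DESeq2 with the block called it across both times (log2 fold change 1.52, SE 0.32, adjusted p = 0.00103), and edgeR did not, with (adjusted p = 0.568) or without the block (1.00). Without the 25 DPI replicate 2 pair its adjusted p by DESeq2 was 0.133 and without the 52 DPI replicate 2 pair 0.062. Il12b, a subunit of interleukins 12 and 23, was at 0 to 0.371 CPM in control and 0.523 to 1.49 CPM in iDKO, and was uncalled by both tools.

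Of 12 surface and lineage markers 9 were higher in iDKO at 52 DPI without overlap (11.9% of all genes tested), with a median log2 fold change of 0.93. Cd24a of this list was lower in iDKO in all 4 pairs (6.70% of all genes tested), at 0.488 to 0.979 of control. Cd1d1, which presents lipid antigens, was at 1.77 and 0.715 CPM (control) against 5.02 and 1.96 CPM (iDKO) at 25 DPI, and at 1.30 and 0.392 CPM (control) against 3.30 and 4.77 CPM (iDKO) at 52 DPI. DESeq2 with the block called it across both times (1.85, SE 0.48, adjusted p = 0.0321) and edgeR did not (0.931 with the block, 1.00 without). By DESeq2 without the 25 DPI replicate 2 or either 52 DPI pair its adjusted p was 0.371 to 0.466. Sirpa, an inhibitory receptor of myeloid cells, was higher in iDKO in all 4 pairs, from 14.2 to 75.4 CPM in control and 32.4 to 87.2 CPM in iDKO, uncalled. Of 18 growth and differentiation factors 4 were higher without overlap at 52 DPI (11.9% of all genes tested), Csf1r, Tgfb1, Runx3 and Spi1, while 11 of the 18 were lower by the fitted value and the median log2 fold change was -0.05. Tgfb1 was at 14.6 and 30.4 CPM (control) against 32.5 and 50.3 CPM (iDKO) at 25 DPI, and at 40.4 and 37.1 CPM (control) against 58.3 and 42.4 CPM (iDKO) at 52 DPI, uncalled. Its receptor Tgfbr1 was higher in iDKO in both 25 DPI pairs and lower in both 52 DPI pairs, also uncalled.

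Around Ltc4s, 10 of 11 genes of leukotriene synthesis and response were tested. Alox5, the lipoxygenase that makes the precursor on which Ltc4s acts, was at 3.60 and 2.48 CPM (control) against 4.45 and 6.28 CPM (iDKO) at 25 DPI, and at 6.82 and 6.82 CPM (control) against 20.2 and 16.2 CPM (iDKO) at 52 DPI. It was higher in iDKO in all 4 pairs and its groups did not overlap at either time. DESeq2 with the block called it across both times (1.14, SE 0.29, adjusted p = 0.029), and edgeR did not (0.931 with the block, 1.00 without). Without the 25 DPI replicate 2 or either 52 DPI pair its adjusted p by DESeq2 was 0.447 to 1.00. Mgst3, a related glutathione transferase, was lower in iDKO in all 4 pairs (6.70% of all genes tested), from 66.7 to 301 CPM in control and 51.1 to 249 CPM in iDKO, uncalled. The median of the list at 52 DPI was 0.46, with 6 genes higher and 4 lower. Of 7 tested genes of apoptotic cell uptake, Mfge8 included, 2 were higher without overlap at 52 DPI (11.9% of all genes tested), Mfge8 and Itgb3, an integrin chain that binds it, and the other 5 had fitted values below 0. Gas6, a bridge to other receptors, was at 272 to 365 CPM in control and 211 to 332 CPM in iDKO, uncalled.

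**Figure D4:**
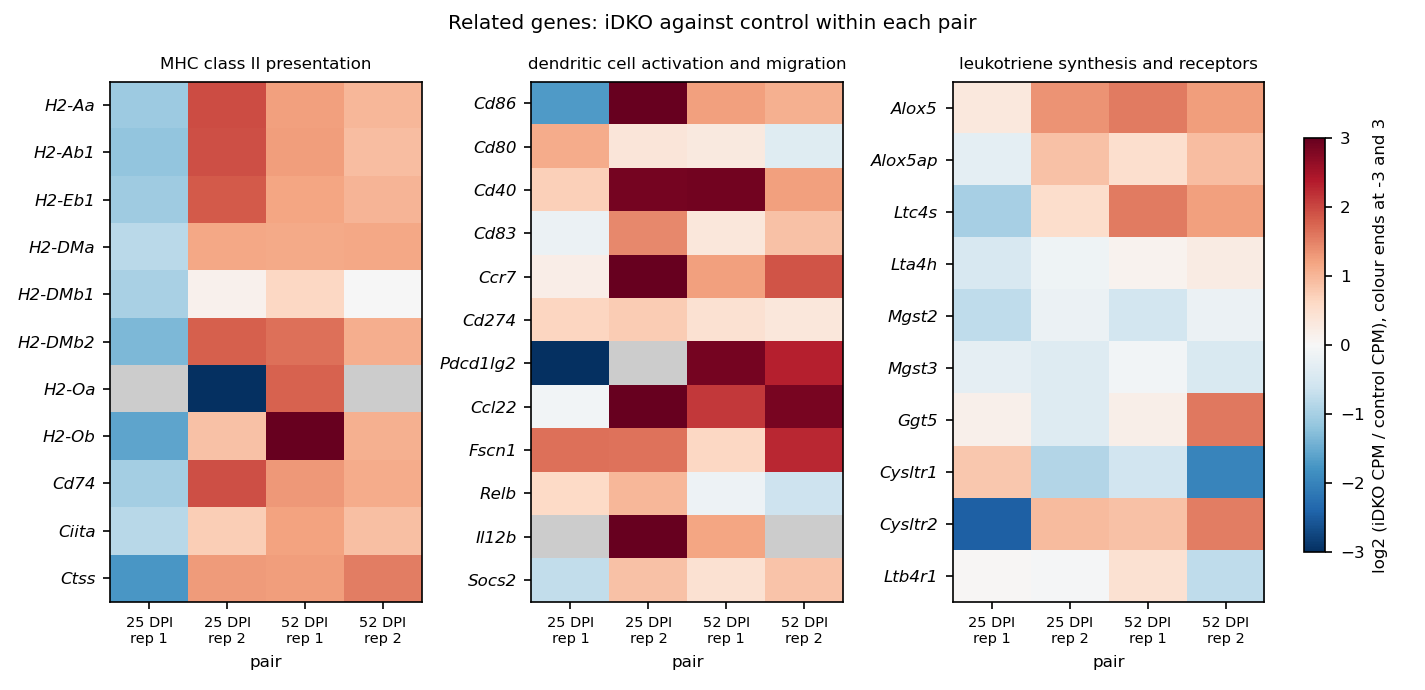
Log2 ratio of iDKO to control CPM within each pair (red higher in iDKO, blue lower, grey where a library had 0 counts) for tested genes of MHC class II presentation, dendritic cell activation and leukotriene genes. The class II column of 25 DPI replicate 1 is blue for every gene with a ratio, and the other 3 columns are red for 9 of the 11 genes.

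Other cells that make some of the 9 genes were followed by their own markers. Of 7 macrophage markers 4 passed the filter, and the defining genes Mrc1, C1qb and C1qc were at 0 to 0.597 CPM, with Cd68 (5.30 to 62.7 CPM) making up the largest share of the sum in every library. All 4 tested, Cd68, Cd163, Lyz2 and C1qa, were higher in iDKO without overlap at 52 DPI (11.9% of all genes tested). The 7 macrophage markers summed to 9.16 and 7.52 CPM (control) against 12.3 and 21.6 CPM (iDKO) at 52 DPI, and to 9.54 and 63.2 CPM (control) against 5.82 and 25.1 CPM (iDKO) at 25 DPI. Of 6 markers of other dendritic cells Clec9a had 0 counts in all 8 libraries and Cd209a was at 0 to 0.392 CPM. Itgae, which epidermal T cells also make, was most of their sum (17.7 to 131 CPM). All 4 tested, Xcr1, Zbtb46, Flt3 and Itgae, were higher in iDKO in both pairs at 52 DPI (27.8% of all genes tested). Of 5 mast cell markers Cpa3, Mcpt4 and Tpsb2 had 0 counts in all 8 libraries. Of 5 neutrophil markers Ly6g and Retnlg had 0 counts in all 8, and Csf3r was at 0 to 0.0628 CPM. The sum was at 1.22 and 1.02 CPM (control) against 7.82 and 3.79 CPM (iDKO) at 52 DPI. It was nearly all S100a8 and S100a9, the tested markers, both higher in iDKO in both pairs there (27.8% of all genes tested). The part of macrophages, other dendritic cells and neutrophils in these results was not tested.

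T cells and fibroblasts differed along with the Langerhans cell genes in some pairs. The 7 T cell markers summed to 202 and 138 CPM (control) against 258 and 525 CPM (iDKO) at 52 DPI. All 7 were higher in iDKO in both pairs there (27.8% of all genes tested). At 25 DPI they summed to 577 and 208 CPM (control) against 215 and 188 CPM (iDKO), and in the replicate 2 pair, where all 9 members were higher, 1 of the 7 was. The 6 fibroblast markers summed to 15.8 and 16.8 CPM (control) against 16.6 and 117 CPM (iDKO) at 52 DPI, and to 51.9 and 160 CPM in the 25 DPI replicate 2 pair. In the 52 DPI replicate 1 pair the fibroblast sum was about even (15.8 and 16.6 CPM), with Cd207 2.26-fold and Mfge8 2.59-fold higher. The sum was higher in both replicate 2 pairs, with Cd207 10.1-fold (25 DPI) and 1.43-fold (52 DPI) and Mfge8 5.37-fold and 1.78-fold higher. In the 25 DPI replicate 1 pair it was at 7.91 and 9.81 CPM, with Cd207 at 0.47 and Mfge8 at 0.98 of control. Keratinocyte markers summed to 46188 and 45281 CPM (control) against 43686 and 25740 CPM (iDKO) at 52 DPI, the lowest value being that of iDKO replicate 2. The part of these cells in the members' values was not tested.

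**Figure D5:**
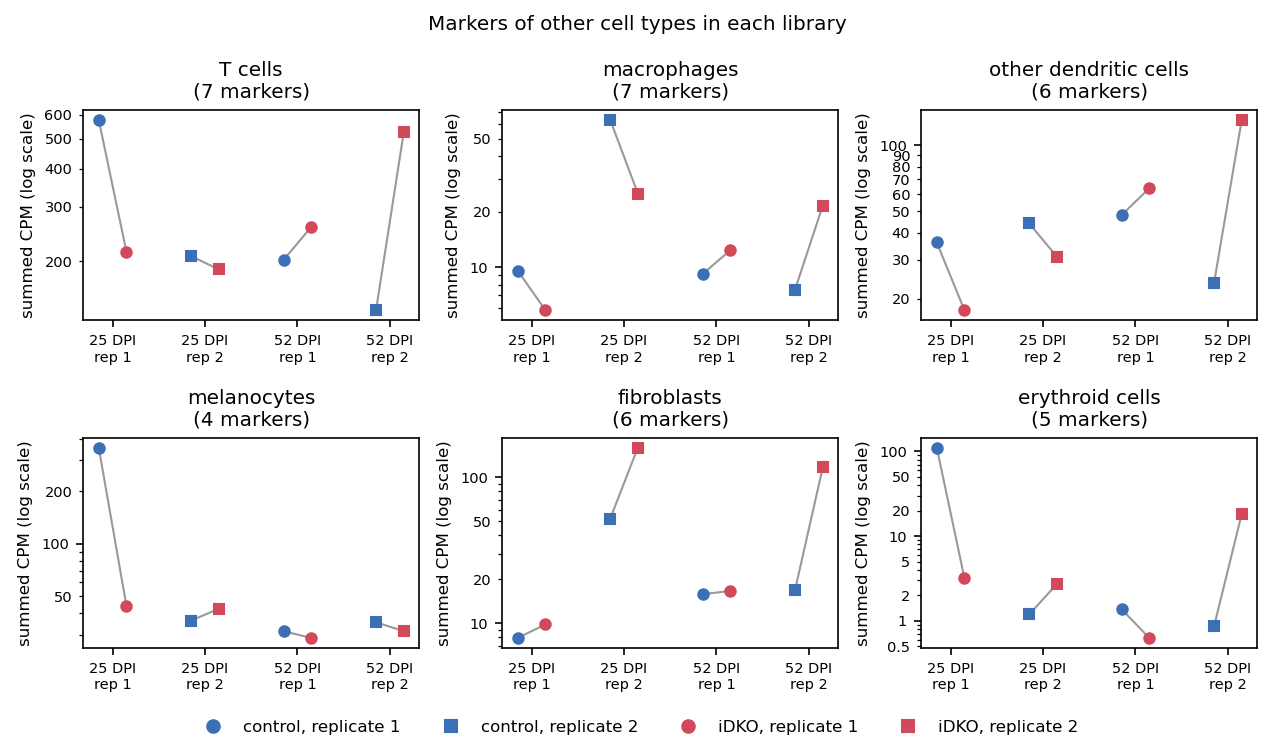
Summed CPM (log scale) of markers of 6 other cell types in the 8 libraries, with the control (blue) and iDKO (red) library of each pair joined by a line. The control library of 25 DPI replicate 1 is highest for T cells, melanocytes and erythroid cells, and iDKO 52 DPI replicate 2 is next for T cells and erythroid cells.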

How the data were processed

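RNA of 8 epidermis libraries was extracted with Trizol and made into libraries with a SMART-seq v4 kit, per the labels' protocols. The labels name that kit alone, although the replicate numbers differed in strandedness as given above. The tools were DESeq2 1.24.0, STAR 2.5.2a, Trimmomatic 0.35 and FastQC 0.11.9 and the builds mm10 and GRCm38, per the submitters' processing notes; the sources used here give no settings. The deposited values are raw counts per gene in the 3-column layout of STAR, of which the unstranded one was taken. Symbols, coordinates and exon lengths came from GENCODE M21 (GRCm38); 54809 of 54838 identifiers matched a symbol.

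Counts were filtered with filterByExpr and tested with edgeR 4.0.16 (R 4.3.3), by quasi-likelihood, with group means (4 residual degrees of freedom), or time and genotype for both times together (5), on all 8 libraries, with Benjamini-Hochberg adjustment over 17839 genes and a threshold of 0.05. The fitting code was tested on simulated data. Replicate deviations correlated between groups at 0.396 to 0.793 for each of the 6 group pairs, which met the rule for pairing; fits with the number as a block within time (2 or 3 residual degrees of freedom), and DESeq2 1.42.0, were alternatives. Unblocked p-values reflect the spread of 2 replicates, which also differed in strandedness. The 9 genes and all lists were chosen with earlier results of these data known. Besides the members, the 2 genes per related list with the smallest unadjusted p across both times under the block were named. So were the 5 closest to Cd207 and to Il34. Ovol1, Ovol2, Zeb1, sex-linked genes, H2-Ab1 and markers of other cells were added as checks. Genes named only as meeting a count are all those that met it. The macrophage markers leave out 1 gene of the original list, which is not reported here.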

Additional observations from a re-analysis of the deposited data

Results flagged for a closer look

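Il34 was higher in iDKO in both pairs at 25 DPI and lower in both pairs at 52 DPI. The difference between the effects at 52 and 25 DPI was -0.60 (SE 0.73) on the log2 scale with an adjusted p of 1.00 by edgeR, so uncalled. Tgfbr1, a receptor of transforming growth factor beta, had the same pattern, with a difference of -0.75 (SE 0.99, adjusted p = 1.00 by edgeR). Of all genes tested 8.40% were higher in both 25 DPI pairs and lower in both 52 DPI pairs.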

How the results depend on the processing

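The number of genes called was 0 by edgeR in every comparison, also without any 1 library (0 to 0). DESeq2 called 2, 1 and 8 genes at 25 DPI, at 52 DPI and across both times, 13 in control and 11 in iDKO between the times. With the replicate block within time DESeq2 called 96, 35 and 70 genes, and 38 for the difference between the times. EdgeR with that block called 1 gene across both times. Without a filter on low counts edgeR called 8, 25, 16 and 19 genes in the 4 genotype comparisons in that order, and 62 and 37 between the times. Leaving out the pairs 25 DPI replicate 1, 25 DPI replicate 2, 52 DPI replicate 1 and 52 DPI replicate 2 in turn, chosen after seeing the data, DESeq2 with the block called 279, 15, 30 and 49 genes across both times, and edgeR with the block 2, 0, 0 and 1. The number of members called was 5 by DESeq2 without the 25 DPI replicate 1 pair and 0 otherwise. The causes were not tested.

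Of 809 values for 43 single results under alternatives, 779 kept their direction. Without 1 library the log2 fold change at 25 DPI ran from -0.28 to 2.75 for Cd207, -1.89 to 1.42 for Ctss, -0.53 to 1.30 for Csf1r, -0.04 to 0.78 for Il34, -0.28 to 1.71 for Itgax, -0.84 to 3.06 for Cd86, -1.32 to 0.87 for Ltc4s and -1.69 to 1.08 for Epcam. That of Il34 at 52 DPI ran from -0.40 to 0.04. Across both times it ran from -0.18 to 1.40 for Ctss, -0.14 to 0.26 for Il34, -0.52 to 0.64 for Epcam, -0.15 to 0.57 for Tgfbr1 and -0.80 to 0.27 for Mgst3, and the difference between the times from -0.03 to 3.27 for Ctss. Ltc4s at 25 DPI was 0.34 with the second-strand column. Under the block without the 25 DPI replicate 1 pair Il34 was -0.07 by edgeR and -0.08 by DESeq2, and Epcam 0.39 and 0.38. Without the 52 DPI replicate 1 pair Epcam was 0.07 and 0.06.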

Other observations

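Ccr7 and Cd40, chosen here after their values were seen, were among the activation genes higher in iDKO in all 4 pairs. These include the 25 DPI replicate 1 pair, in which Cd207 was lower. In that pair 7 of the 12 tested activation genes were higher, Ccr7 by 1.15-fold and Cd40 by 1.63-fold. Cd86, Cd83, Pdcd1lg2, Ccl22 and Socs2 were lower there, Cd86 at 0.308 of control. Ccr7, the receptor that leads mature dendritic cells to the lymph node, was at 6.86 and 0.596 CPM (control) against 7.87 and 6.28 CPM (iDKO) at 25 DPI, and at 5.93 and 3.21 CPM (control) against 13.8 and 12.0 CPM (iDKO) at 52 DPI. Cd40, the receptor through which T cells activate dendritic cells, was at 0.981 and 0.119 CPM (control) against 1.60 and 0.871 CPM (iDKO) at 25 DPI, and at 0.334 and 0.392 CPM (control) against 2.48 and 0.916 CPM (iDKO) at 52 DPI.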
